A study of Mus musculus with 29 samples.

Results

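The colons of mice that lack cytoglobin were compared after and without treatment with azoxymethane and dextran sulfate sodium (AOM/DSS). Of the 29 arrays of the series, 13 are of Cygb-/- mice and were used here: 5 from AOM/DSS-treated Cygb-/- mice and 8 from untreated Cygb-/- mice. They were chosen by their labels alone, and the comparison was made across all 22180 genes that had at least 1 probe set annotated with that gene only. The other 16 arrays, 8 of AOM/DSS-treated and 8 of untreated WT mice, were used only to set the response of the Cygb-/- colon against that of WT. RNA came from the distal colon of female C57BL/6 mice aged 18-24 weeks and was hybridised to Affymetrix Mouse Gene ST arrays, 1 array per mouse as far as the labels say.

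AOM, a carcinogen that forms DNA adducts in the colon, was given at 7.4 mg/kg by intraperitoneal injection. DSS, a sulfated polysaccharide that injures the colonic epithelium, was given at 3% for 7 days. The labels state 1 such cycle in week 2 and death in week 5, whereas the methods of the study describe a further cycle and a later end for the mice put on arrays, so the time since the last DSS is not settled. The design text of the series lists 8 treated Cygb-/- replicates, but its total of 29 arrays leaves 5, which is also the number the methods of the study give. Every Cygb-/- mouse carried a germline deletion of an exon that codes for heme-binding residues, in all cell types and from conception on. The allele was made in embryonic stem cells of another mouse strain and crossed to C57BL/6, and Cygb-/- and WT mice were then bred as separate lines, so line and genotype cannot be told apart. No label or file header gives a cohort, a scan date or an extraction batch for the untreated mice, so batch and treatment cannot be told apart either. The p-values measure the spread between these 13 arrays.

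Cytoglobin is a heme globin of fibroblasts and related stromal cells that has been linked to nitric oxide and reactive oxygen. In the AOM/DSS model, breaks in the epithelium let luminal bacteria reach the lamina propria. Macrophages and epithelial cells then release IL-1 family cytokines and CXC chemokines, neutrophils and monocytes enter the mucosa, fibroblasts and proteases rework the matrix, and the crypts regrow. Surface colonocytes, which absorb salt, water and short-chain fatty acids and carry most of the detoxifying enzymes of the gut, are lost in this process and are replaced from the crypt.

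The targeted gene was low on all Cygb-/- arrays. The log2 value of Cygb was 6.48, 6.25, 6.26, 6.48 and 6.03 in AOM/DSS Cygb-/- colons, against 5.83 to 6.41 (median 6.12) in untreated Cygb-/- colons. All 13 values lay below the 16 WT values, which ran between 8.41 and 9.29 after AOM/DSS and between 8.57 and 8.98 without. Within Cygb-/- colons the log2 fold change of Cygb after AOM/DSS was 0.18 (standard error, SE, 0.10, adjusted p = 0.22). A second check of the labels did not hold on 1 array. Xist, which coats and shuts down 1 X chromosome of female cells, was at 3.82 in AOM/DSS Cygb-/- replicate 3 and between 10.64 and 11.15 on the other 28 arrays. The Y-linked genes were low there too, with Eif2s3y at 2.43 (1.91 to 2.79 on the other arrays), Kdm5d at 2.44 (1.95 to 2.85) and Uty at 1.95 (1.98 to 2.53). Counts are therefore also given without replicate 3. AOM/DSS Cygb-/- replicates 1 and 3 had the highest mean of the neutrophil genes described below, and some counts without both are given as well.

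AOM/DSS changed a large share of the genes measured in Cygb-/- colons. With limma and Benjamini-Hochberg adjustment over all 41345 probe sets, 3939 genes were higher after AOM/DSS (17.8% of the 22180 tested) and 3794 were lower (17.1%), at an adjusted p under 0.05. Counted as probe sets, 5224 were higher and 5581 lower, and 4648 and 4808 without replicate 3. Large changes ran mostly upward: 827 genes were raised and 433 lowered at least 2-fold, 193 and 81 at least 4-fold, and 23 and 9 at least 16-fold. The median log2 fold change was 0.53 over the genes called higher, -0.43 over those called lower and -0.03 over all genes. In 2557 genes (11.5%) all 5 treated values lay above all 8 untreated ones, and in 2383 (10.7%) all lay below. The first principal component of the 13 arrays held 46.0% of the variance and separated the groups, with treated arrays between 47.5 and 82.0 and untreated arrays between -42.6 and -24.4. The treated arrays also differed more among themselves. The SD of a gene was larger in AOM/DSS than in untreated Cygb-/- colons for 60.1% of genes, with medians of 0.168 and 0.149 on the log2 scale. These are values of whole tissue, in which fewer cells of a type and less RNA per cell cannot be told apart. The arrays carry no detection calls, and untreated values between 2 and 4 lie near the lower quartile of every array (3.26 to 3.37), where fold changes may be understated.

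**Figure D1:**
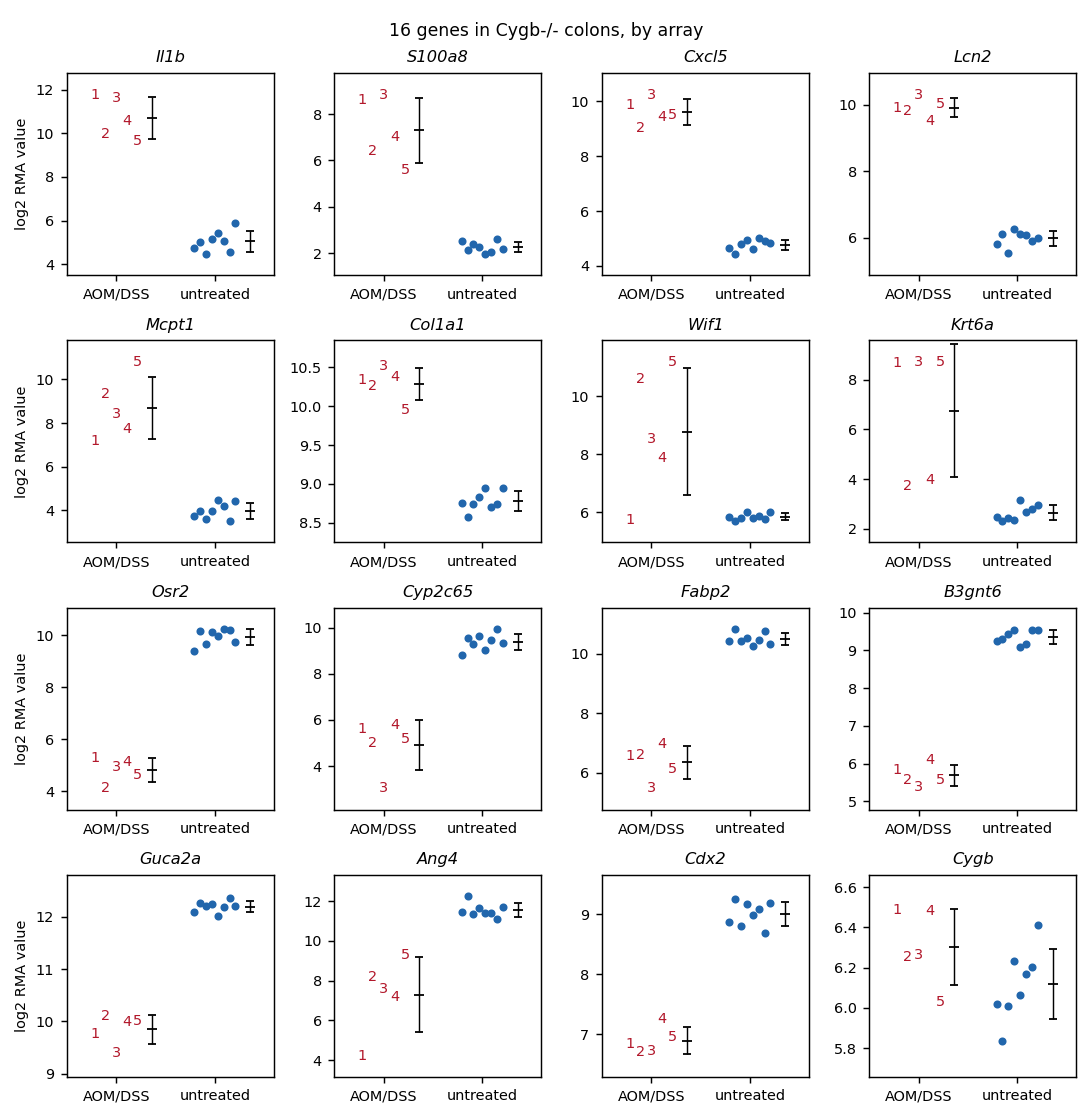
Log2 RMA value (y axis) of 16 genes in AOM/DSS Cygb-/- colons (red digits, which give the replicate number) and untreated Cygb-/- colons (blue points), with the mean and SD of each group as black bars. Il1b, S100a8, Cxcl5 and Lcn2 stand far above the untreated arrays on all 5 treated arrays, Wif1 and Krt6a on some of them, and Osr2, Cyp2c65, Fabp2, B3gnt6, Guca2a, Ang4 and Cdx2 lie below on all 5, while Cygb overlaps.

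The largest rise belonged to a cytokine. Il1b, which encodes the inflammasome product IL-1 beta, had log2 values of 11.77, 9.98, 11.59, 10.56 and 9.63 in AOM/DSS Cygb-/- colons, against 4.47 to 5.91 (median 5.05) in untreated Cygb-/- colons. Replicates 1 and 3 were the highest, and the lowest treated value was far above the highest untreated one. The log2 fold change was 5.66 (SE 0.35, 50.5-fold, adjusted p = 9.8e-08). Its sister Il1a had 9.38, 7.39, 9.74, 7.21 and 6.23 in AOM/DSS Cygb-/- colons and 3.13 to 3.71 (median 3.46) in untreated ones, a log2 fold change of 4.53 (adjusted p = 7.11e-06). Of 16 measured genes of the IL-1, IL-6 and TNF cytokines, 14 rose and 1 fell, with a median log2 fold change of 1.65. Il1f9, an epithelial member of the IL-1 family, rose 15.5-fold (adjusted p = 3e-06), Tnf 5.05-fold (adjusted p = 1.7e-05), and the alarmin Il33 3.82-fold (adjusted p = 2.73e-06). Osmr, the receptor subunit through which oncostatin M reaches stromal cells, had a log2 fold change of 2.19 (SE 0.13, adjusted p = 7.03e-08). The T helper and myeloid growth cytokines had smaller measured fold changes. Of 13 measured, 4 rose (Csf1, Il17a, Il23a and Csf3) and none fell, with a median of 0.22. Some that did not pass lay below the lower quartile of the arrays in both groups, where a change may be missed. The treated and untreated means were 1.646 and 1.424 for Il22, 2.735 and 2.576 for Il10, and 3.145 and 3.069 for Il4. Il17a, the neutrophil-mobilising cytokine of TH17 cells, had 4.68, 4.37, 5.44, 4.66 and 3.86 in AOM/DSS Cygb-/- colons and 3.44 to 4.0 (median 3.59) in untreated ones, and replicate 5 lay inside the untreated range (log2 fold change 0.98, adjusted p = 0.00157). Ifng had a log2 fold change of 0.63 (SE 0.27, adjusted p = 0.101), with replicates 1 and 3 at 5.32 and 5.35 and the other treated arrays at 3.85 to 3.97.

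Chemokines that draw neutrophils stood beside IL-1 beta. Cxcl5, a ligand of CXCR2 made by epithelium and stroma, had log2 values of 9.88, 9.02, 10.23, 9.44 and 9.48 in AOM/DSS Cygb-/- colons, against 4.45 to 5.01 (median 4.82) in untreated Cygb-/- colons. The 5 treated values were close together, and the fold change of 28.5 had the smallest SE among the genes raised this far (log2 4.83, SE 0.17, adjusted p = 3.23e-10). Cxcl3 rose 18.7-fold (adjusted p = 7.22e-06), Cxcl2 10.5-fold (adjusted p = 1.49e-05) and Cxcl1 3.1-fold (adjusted p = 3.64e-05). Their receptor gene Cxcr2 had 9.52, 7.66, 9.07, 8.09 and 7.20 in AOM/DSS Cygb-/- colons and 3.71 to 4.77 (median 4.11) in untreated ones, a log2 fold change of 4.10 (adjusted p = 9.29e-07). Cxcl9 and Cxcl10, interferon-induced chemokines for T cells, rose 15.4-fold and 7.39-fold (adjusted p = 1.4e-06 and 3.87e-05). In all, 16 of 21 measured CXC chemokine and receptor genes rose and none fell (median 1.24). Of 16 CC chemokines 6 rose and 2 fell, beside 17.8% and 17.1% of all genes. The rise was led by Ccl3 (log2 fold change 3.90), Ccl2 (2.25) and Ccl7 (1.85), which call in monocytes. Ccl6 (-0.75) and Ccl25 (-0.33) fell. Ppbp, another CXC chemokine, behaved differently between mice, with 11.28, 5.86, 10.68, 5.64 and 11.01 in AOM/DSS Cygb-/- colons and 3.78 to 4.31 (median 3.95) in untreated ones. Replicates 1, 3 and 5 were high and replicates 2 and 4 moderately raised.

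Feedback genes of NF-kB and STAT3, the transcription factors downstream of these cytokines, rose in 11 of 14 cases and fell in 1 (median 0.68). Socs3, an inhibitor of STAT3 signaling, had a log2 fold change of 1.96 (adjusted p = 4.4e-06), the NF-kB inhibitor Nfkbie 1.52 (adjusted p = 3.55e-06) and Stat3 itself 0.67 (SE 0.06, adjusted p = 2.72e-06). Tnip1, which restrains NF-kB, was the gene that fell (log2 fold change -0.48, adjusted p = 3.84e-05), while its relative Tnip3 rose (1.44, adjusted p = 3.2e-05).

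The promoters of the most changed genes were searched for a core NF-kB motif (GGANTTTCC) and an HNF4 motif (CAAAGTCCA), on both strands of RefSeq promoter windows of 300 bases around the gene start in GRCm38.p6. Of the 50 genes raised most, 38 had such a window, and 3 of these (7.89%) held the NF-kB motif, namely Acod1, Cxcl3 and Cxcl2. Of the 50 genes lowered most, 43 had a window and 0 held it. Over all 27025 promoters the share was 1.27%, and 1.35% over the 16990 tested genes with a window. The HNF4 motif was in 4 of the 43 windows of lowered genes (9.3%: Cyp2c65, Hsd3b3, Slc3a1 and Alpi), in 0 of the 38 windows of raised genes, in 0.496% of all promoters and in 0.477% of those of tested genes. A match shows that these letters are present and nothing about binding. The windows of 2 raised genes and 1 lowered gene, chosen because they hold the motif and changed among the most, are printed from the upstream end, with the motif, or its reverse complement where it lies on the other strand, in capitals. Cxcl3 lies at chr5:90785851-90786150 (plus strand), Acod1 at chr14:103046762-103047061 (plus strand, match on the other strand) and Cyp2c65, a cytochrome P450 gene described below, at chr19:39060756-39061055 (plus strand).
Cxcl3: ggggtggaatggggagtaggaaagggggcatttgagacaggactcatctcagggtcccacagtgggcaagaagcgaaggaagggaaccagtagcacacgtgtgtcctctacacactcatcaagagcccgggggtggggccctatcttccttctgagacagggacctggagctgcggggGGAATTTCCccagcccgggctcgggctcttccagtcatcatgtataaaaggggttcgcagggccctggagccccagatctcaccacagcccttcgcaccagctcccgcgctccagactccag
Acod1: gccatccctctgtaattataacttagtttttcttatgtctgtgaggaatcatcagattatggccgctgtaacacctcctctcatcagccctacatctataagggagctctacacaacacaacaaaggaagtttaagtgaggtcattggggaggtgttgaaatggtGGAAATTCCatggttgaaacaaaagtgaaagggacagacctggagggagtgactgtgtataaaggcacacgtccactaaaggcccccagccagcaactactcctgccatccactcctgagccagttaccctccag
Cyp2c65: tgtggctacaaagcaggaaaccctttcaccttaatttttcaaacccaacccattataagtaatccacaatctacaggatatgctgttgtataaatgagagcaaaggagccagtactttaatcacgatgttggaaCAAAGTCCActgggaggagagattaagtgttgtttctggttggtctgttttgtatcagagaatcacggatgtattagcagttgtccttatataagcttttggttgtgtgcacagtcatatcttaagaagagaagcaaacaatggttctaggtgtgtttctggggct

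Acod1, the macrophage enzyme that makes itaconate, had log2 values of 10.31, 6.30, 9.25, 7.94 and 6.83 in AOM/DSS Cygb-/- colons, against 3.54 to 4.24 (median 3.89) in untreated ones, a log2 fold change of 4.26 (adjusted p = 3e-05). Cxcl3 had 8.01, 5.75, 8.11, 5.41 and 6.12 in AOM/DSS Cygb-/- colons and 2.03 to 3.37 (median 2.31) in untreated ones. In both genes replicates 1 and 3 were the highest, and no treated value overlapped an untreated one.

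Neutrophil genes had the highest median of all lists. Of 21 measured, 17 rose and none fell, with a median log2 fold change of 3.22, beside 17.8% of all genes called higher. S100a8, a subunit of calprotectin, had 8.62, 6.41, 8.84, 7.03 and 5.60 in AOM/DSS Cygb-/- colons, against 1.97 to 2.61 (median 2.23) in untreated Cygb-/- colons (log2 fold change 5.03, SE 0.44, adjusted p = 1.86e-06). Its partner S100a9 rose 15.7-fold (adjusted p = 2.04e-06), Retnlg 30-fold (adjusted p = 9.42e-07), the receptor gene Clec4e 25.6-fold (adjusted p = 4.63e-06) and the granule collagenase Mmp8 16.7-fold (adjusted p = 8.67e-06). Csf3r, the G-CSF receptor, rose 7.46-fold (adjusted p = 1.07e-06). Genes of granule proteins were divided. Ltf, the lactoferrin gene (log2 fold change 3.79, adjusted p = 0.000555), and Ngp (1.94, adjusted p = 0.00394) rose. The 4 members of the list that did not pass the test were Mpo (log2 fold change 0.54, adjusted p = 0.293), Elane (0.18, adjusted p = 0.551), Prtn3 (0.33, adjusted p = 0.134) and Camp (0.64, adjusted p = 0.14). The mean of the list above the untreated mean was 3.60, 2.13, 3.84, 2.40 and 2.01 in the 5 treated arrays. Without replicates 1 and 3 the same number of members passed, with a median of 2.59. Lcn2, a siderophore-binding protein of neutrophils and of inflamed epithelium, was among the genes with the smallest p of all, at 9.91, 9.82, 10.28, 9.52 and 10.04 in AOM/DSS Cygb-/- colons and 5.53 to 6.26 (median 6.04) in untreated ones (log2 fold change 3.94, SE 0.13, adjusted p = 3.07e-10).

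Mast cell genes rose in all 5 treated mice too, but in another order of the arrays. Mcpt1, a chymase of mucosal mast cells, had log2 values of 7.17, 9.36, 8.42, 7.72 and 10.82 in AOM/DSS Cygb-/- colons, against 3.49 to 4.47 (median 3.95) in untreated Cygb-/- colons (log2 fold change 4.72, adjusted p = 5e-06). Replicate 5 was highest and replicate 1 lowest, unlike the neutrophil genes, for which replicates 1 and 3 were the highest. Mcpt2 (log2 fold change 4.45, adjusted p = 1.7e-05) is a close relative of Mcpt1, and probes of the pair may cross-hybridise. Cpa3, the mast cell carboxypeptidase, had a log2 fold change of 4.45 as well (adjusted p = 8.96e-07), and Mcpt4, a chymase of connective tissue mast cells, 2.28 (adjusted p = 2.45e-06). Of 10 genes of the list 9 rose and 1 fell (median 1.95). The one that fell was Kit, the stem cell factor receptor that also marks interstitial cells of Cajal, with 8.39, 8.14, 7.68, 8.08 and 8.01 in AOM/DSS Cygb-/- colons and 9.18 to 9.49 (median 9.31) in untreated ones.

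Macrophage and lymphocyte genes rose less than neutrophil and mast cell genes, by the medians of their lists. The mean of the T cell list was 1.27 and 1.31 in treated replicates 1 and 3 and 0.51 to 0.65 in the other treated arrays. Of 18 monocyte and macrophage genes 17 rose and none fell (median 1.41), and the remaining one, the scavenger receptor gene Cd163 of resident macrophages, had a log2 fold change of -0.12 (adjusted p = 0.655). Msr1, another scavenger receptor gene, had 7.66, 7.28, 7.73, 7.34 and 7.39 in AOM/DSS Cygb-/- colons and 5.34 to 5.72 (median 5.56) in untreated ones (log2 fold change 1.91, SE 0.09, adjusted p = 1.38e-08). Chil3, a chitinase-like protein of alternatively activated macrophages, rose 20.7-fold (adjusted p = 2.95e-06), Cd68 3.48-fold (adjusted p = 2.19e-07) and Adgre1, a surface receptor of tissue macrophages, 2.4-fold (adjusted p = 4.84e-06). Of 13 T cell genes 11 rose and none fell (median 0.84), among them Foxp3 of regulatory T cells (log2 fold change 1.35, adjusted p = 9.24e-06) and the costimulatory receptor Icos (1.43, adjusted p = 9.64e-07). Without replicate 3 the number was 8, and without replicates 1 and 3 it was 7. All 12 B cell and plasma cell genes rose (median 1.28). Cr2, a complement receptor of B cells and follicular dendritic cells, varied most among untreated mice, with 6.91, 7.05, 6.87, 6.97 and 5.99 in AOM/DSS Cygb-/- colons and 3.18 to 6.46 (median 4.29) in untreated ones, so that the groups overlapped. The mean of the B cell list was 0.72 in treated replicate 5, 1.5 to 1.71 in the other treated arrays, and reached 0.96 in an untreated array. How much lymphoid tissue each piece of colon held was not tested.

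Antigen presentation and interferon response genes were highest on treated replicates 1 and 3, the arrays with most neutrophil RNA. Of 10 MHC class II genes 9 rose and none fell (median 1.43). H2-Ab1 had 12.01, 11.40, 12.24, 11.46 and 11.45 in AOM/DSS Cygb-/- colons and 9.60 to 10.46 (median 10.10) in untreated ones (log2 fold change 1.64, adjusted p = 9.28e-06), and the class II transactivator gene Ciita rose 2.9-fold (adjusted p = 0.000397). Of 17 interferon response genes 11 rose and 1 fell (median 0.99). The ones raised most, Iigp1 (9.71-fold), Gbp5 (6.92-fold) and Igtp (4.02-fold), encode GTPases induced by interferon gamma. Genes known best as targets of type I interferon differed among themselves. Ifit2 rose (log2 fold change 0.95, adjusted p = 0.00215), Irf7 fell (log2 fold change -0.58, adjusted p = 0.0321), a call lost without treated replicate 2, 3, 4 or 5 and without untreated replicate 1 or 6, and Isg15 (0.46, adjusted p = 0.333), Ifit1 (-0.19, adjusted p = 0.739), Ifit3 (-0.20, adjusted p = 0.362) and Oasl2 (0.24, adjusted p = 0.718) did not pass. The mean of the interferon list was 1.43 and 1.68 in treated replicates 1 and 3 and 0.50 to 0.83 in the other treated arrays, and it reached 0.49 in an untreated array. Without replicates 1 and 3 the median log2 fold change was 0.60, with 10 genes higher and 2 lower. All 11 measured complement genes rose (median 1.37), with C4b 4.15-fold and the anaphylatoxin receptor gene C5ar1 3.21-fold higher. Of 19 Toll-like receptor and inflammasome genes 9 rose, 4 fell and 6 did not pass the test, beside 17.8% of all genes called higher and 17.1% called lower. Tlr8, Tlr9, Tlr7 and Tlr6 rose 1.98-fold to 3.39-fold and Nlrp3 3.47-fold, while Tlr5, the flagellin receptor, fell (log2 fold change -0.93, adjusted p = 4.48e-05), as did Tlr3 (-0.25, adjusted p = 0.0174).

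**Figure D2:**
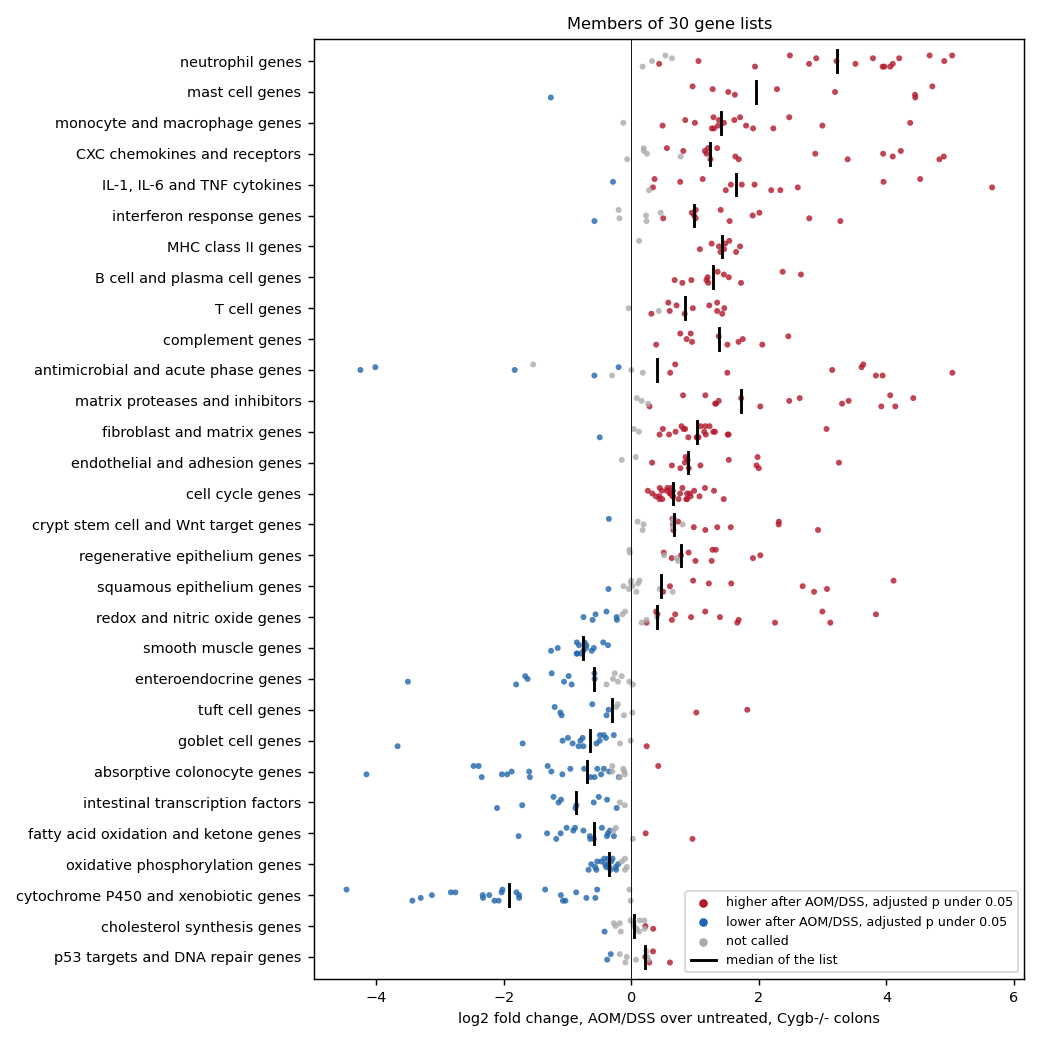
Log2 fold change, AOM/DSS over untreated in Cygb-/- colons (x axis), of the measured members of gene lists (y axis), with members called higher in red, called lower in blue and not called in grey, and the median of each list as a black bar. Neutrophil genes have the highest median (3.22) and cytochrome P450 and xenobiotic genes the lowest (-1.91).

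Antimicrobial genes went both ways, and which cells made these transcripts was not tested. Of 18 antimicrobial and acute phase genes 9 rose and 5 fell (median 0.40). Saa3, an acute phase apolipoprotein, had 11.14, 9.99, 11.44, 10.78 and 8.83 in AOM/DSS Cygb-/- colons and 4.81 to 6.15 (median 5.38) in untreated ones (log2 fold change 5.04, adjusted p = 3.33e-07). Slpi, an inhibitor of neutrophil elastase, rose 8.88-fold (adjusted p = 6.83e-07), haptoglobin (Hp) 12.2-fold (adjusted p = 1.87e-06) and the phospholipase Pla2g2a 12.4-fold (adjusted p = 1.95e-06). Ang4, an antibacterial ribonuclease of Paneth and goblet cells, went the other way, with 4.22, 8.16, 7.59, 7.16 and 9.28 in AOM/DSS Cygb-/- colons and 11.08 to 12.26 (median 11.40) in untreated ones (log2 fold change -4.25, adjusted p = 9.92e-05). The C-type lectin Reg3b had 6.59, 5.50, 10.30, 6.15 and 5.17 in AOM/DSS Cygb-/- colons and 9.63 to 12.19 (median 10.67) in untreated ones, and replicate 3 alone lay inside the untreated range (log2 fold change -4.01, adjusted p = 0.00063). Its neighbour Reg3g had a log2 fold change of -1.54 (adjusted p = 0.0628), and Retnlb, a goblet cell product that acts on bacteria, fell by 1.83 on the log2 scale (adjusted p = 0.0136). The study lists Retnlb as higher in untreated Cygb-/- than in untreated WT colons, so its fall began from a higher level than in WT. The mean of the antimicrobial list in untreated WT colons was -0.29 from the untreated Cygb-/- mean. In WT colons 9 genes of the list rose and 2 fell.

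Matrix genes were raised in all 5 treated mice. The list mean of fibroblast and matrix genes ran from 0.820 to 1.078 in the treated arrays, and that of matrix proteases and inhibitors from 1.731 to 2.605. Of 19 matrix proteases and inhibitors 16 rose and none fell (median 1.72), and of 24 fibroblast and matrix genes 21 rose and 1 fell (median 1.03). Mmp10, a stromelysin, had 8.90, 9.48, 10.12, 9.0 and 8.59 in AOM/DSS Cygb-/- colons and 4.71 to 5.73 (median 5.04) in untreated ones (log2 fold change 4.14, SE 0.23, adjusted p = 3.55e-08). The collagenase Mmp13 rose 15.1-fold (adjusted p = 9.59e-07), the stromelysin Mmp3 10.6-fold (adjusted p = 5.01e-06), the gelatinase Mmp9 9.88-fold (adjusted p = 7.26e-08), and the inhibitor Timp1 6.24-fold (adjusted p = 5.32e-07). Col1a1, a chain of type I collagen, had 10.34, 10.26, 10.52, 10.38 and 9.96 in AOM/DSS Cygb-/- colons and 8.58 to 8.95 (median 8.75) in untreated ones, a log2 fold change of 1.51 (SE 0.09, adjusted p = 8.69e-08). Lox, which crosslinks collagen, rose 8.35-fold (adjusted p = 1.58e-07), and the basement membrane collagens Col4a1 and Col4a2 rose 2.23-fold and 2.08-fold (adjusted p = 1.62e-07 and 5.75e-08). The exception was Fap, the fibroblast activation protein gene, which fell by 0.49 on the log2 scale (adjusted p = 0.0153).

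Of 21 genes listed as stromal Wnt, BMP and TGF-beta signals 9 rose and 3 fell, beside 17.8% and 17.1% of all genes. Which cells made these transcripts was not tested. Grem1, a BMP antagonist of fibroblasts near the crypt base, had 10.98, 10.48, 11.11, 10.94 and 10.22 in AOM/DSS Cygb-/- colons and 8.62 to 9.20 (median 8.87) in untreated ones (log2 fold change 1.90, adjusted p = 5.57e-07). Inhba, the activin A subunit, rose 5.71-fold (adjusted p = 4e-06), Tgfb1 2.34-fold (adjusted p = 5.87e-06) and Wnt5a 1.72-fold (adjusted p = 2.79e-05). Bmp3 fell most (log2 fold change -2.24, SE 0.11, adjusted p = 1.42e-08), with Bmp2 (-0.41) and Tgfb2 (-0.37). Osr2, a zinc finger transcription factor of mesenchyme, was the most lowered of all genes, at 5.27, 4.13, 4.93, 5.14 and 4.63 in AOM/DSS Cygb-/- colons and 9.40 to 10.23 (median 10.05) in untreated ones (log2 fold change -5.11, SE 0.19, 34.6-fold, adjusted p = 9.59e-10).

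Vessels and muscle moved in opposite directions. Of 15 endothelial and adhesion genes 13 rose and none fell (median 0.88). Selp, the P-selectin on which leukocytes roll, rose 9.56-fold (adjusted p = 5.51e-07), with 9.17, 9.23, 9.13, 9.02 and 7.49 in AOM/DSS Cygb-/- colons and 5.32 to 5.98 (median 5.50) in untreated ones, and Vcam1, Icam1 and the gut addressin Madcam1 rose 4.0-fold, 3.95-fold and 3.9-fold. All 15 smooth muscle genes fell (median -0.75). Desmin (Des) had 10.62, 10.56, 10.35, 10.81 and 11.14 in AOM/DSS Cygb-/- colons and 11.47 to 11.65 (median 11.55) in untreated ones, and Mylk, the kinase of smooth muscle contraction, fell by 1.15 on the log2 scale (adjusted p = 3.94e-06). Of 11 enteric neuron and glia genes 5 fell, among them Snap25 of synaptic vesicle fusion (-1.10, adjusted p = 3.45e-05) and the neuronal nitric oxide synthase Nos1 (-0.75, adjusted p = 9.14e-05), and 1 rose, the GDNF receptor gene Ret (0.87, adjusted p = 8.88e-05). How much muscle each dissected piece held was not tested.

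Most transcripts listed for mature colonocytes were lower after AOM/DSS. Of 28 absorptive colonocyte genes 21 fell and 1 rose (median -0.69), beside 17.1% of all genes called lower. Fabp2, the intestinal fatty acid binding protein, had 6.55, 6.6, 5.50, 6.98 and 6.14 in AOM/DSS Cygb-/- colons, against 10.27 to 10.82 (median 10.45) in untreated Cygb-/- colons (log2 fold change -4.15, SE 0.20, 17.8-fold, adjusted p = 1.05e-08). Guca2a, the secreted guanylin precursor, had 9.76, 10.10, 9.40, 9.98 and 10.01 in AOM/DSS Cygb-/- colons and 12.02 to 12.35 (median 12.20) in untreated ones (log2 fold change -2.35, adjusted p = 7.38e-09). Both genes showed no overlap, and treated replicate 3 was the lowest in each. Slc9a2 and Scnn1a, a sodium-hydrogen exchanger and a subunit of the epithelial sodium channel, fell by 1.88 and 0.96 on the log2 scale (adjusted p = 4.96e-07 and 6.31e-07), and the brush border protease Mep1a had a log2 fold change of -2.47 (adjusted p = 4.6e-06). Krt20, the keratin of differentiated colonocytes, fell by only 0.35 (adjusted p = 0.0011). General epithelial genes gave smaller differences, with a log2 fold change of -0.02 for Epcam (SE 0.06, adjusted p = 0.817) and -0.13 for Vil1 (SE 0.06, adjusted p = 0.12). The gene of the list that rose was the chloride channel regulator Clca4a (log2 fold change 0.42, adjusted p = 0.00359). Its paralog Clca4b was among the most raised genes of all, at 12.25, 12.08, 12.16, 12.24 and 11.69 in AOM/DSS Cygb-/- colons and 5.72 to 7.45 (median 6.8) in untreated ones (log2 fold change 5.32, SE 0.24, adjusted p = 8.6e-09). Probes of these paralogs may share signal.

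Among the other genes lowered most, Slc13a1, a sulfate cotransporter, had 4.59, 4.0, 3.91, 4.97 and 3.71 in AOM/DSS Cygb-/- colons and 8.35 to 9.43 (median 8.80) in untreated ones (log2 fold change -4.63, adjusted p = 1.66e-08). Abca12, a lipid transporter, fell 25.7-fold (SE 0.16 on the log2 scale, adjusted p = 3.23e-10), Slc51a, a subunit of the bile acid exporter of the basolateral membrane, 13.8-fold (adjusted p = 2.39e-09), the disaccharidase Sis 14.9-fold (adjusted p = 5.76e-08) and Tmigd1, an adhesion protein of the brush border, 14.7-fold (adjusted p = 5.18e-08). Mptx1, a pentraxin gene, varied widely among treated mice, with 4.85, 8.81, 4.67, 5.90 and 7.17 in AOM/DSS Cygb-/- colons and 10.54 to 11.42 (median 11.06) in untreated ones.

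Detoxifying enzymes had the lowest median of the lists. Of 26 cytochrome P450 and xenobiotic genes 24 fell and none rose (median -1.91). Cyp2c65 had 5.61, 4.99, 3.04, 5.77 and 5.18 in AOM/DSS Cygb-/- colons and 8.83 to 9.95 (median 9.39) in untreated ones (log2 fold change -4.47, SE 0.37, adjusted p = 1.07e-06). Cyp4b1 fell 10.8-fold (adjusted p = 1.34e-09), Cyp3a13 4.68-fold (adjusted p = 6.08e-08), the sulfotransferase Sult1a1 6.77-fold (adjusted p = 7.28e-08), and the retinal dehydrogenase Aldh1a1 9.87-fold (adjusted p = 4.09e-08). Another retinal dehydrogenase, Aldh1a3, rose 11.9-fold, at 9.42, 9.54, 9.96, 9.50 and 9.51 in AOM/DSS Cygb-/- colons and 5.61 to 6.33 (median 6.03) in untreated ones (SE 0.12 on the log2 scale, adjusted p = 3.23e-10). The mean of the xenobiotic list was -2.47 in treated replicate 3 and between -1.77 and -1.56 in the other treated arrays. Cyp2c55, another family member, showed the same array apart, at 9.49, 11.02, 5.43, 11.14 and 11.17 in AOM/DSS Cygb-/- colons and 12.64 to 12.90 (median 12.80) in untreated ones. Hsd3b3, a steroid dehydrogenase whose promoter holds the HNF4 motif, fell 13.2-fold (adjusted p = 5.68e-07).

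Mitochondrial genes fell by smaller amounts. Of 21 fatty acid oxidation and ketone genes 16 fell and 2 rose (median -0.59), including Acads, the short-chain acyl-CoA dehydrogenase of butyrate use (log2 fold change -1.11, adjusted p = 4.96e-07), Acaa2 (-1.18, adjusted p = 1.4e-07) and the lipid sensors Ppara (-1.77, adjusted p = 3.26e-07) and Pparg (-0.91, adjusted p = 1.32e-06). Of 22 oxidative phosphorylation genes 18 fell and none rose (median -0.35). Cox4i1 had 9.55, 9.69, 9.62, 9.65 and 9.66 in AOM/DSS Cygb-/- colons and 10.22 to 10.45 (median 10.27) in untreated ones, a log2 fold change of -0.67 (SE 0.06, adjusted p = 1.52e-06).

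Transcription factors of the gut epithelium fell with the enzymes. Of 13 intestinal transcription factors 11 fell and none rose (median -0.86). Cdx2, the homeobox factor of intestinal identity, had 6.85, 6.70, 6.72, 7.26 and 6.96 in AOM/DSS Cygb-/- colons and 8.69 to 9.25 (median 9.03) in untreated ones, without overlap (log2 fold change -2.10, SE 0.12, adjusted p = 3.58e-08). The nuclear receptors Nr5a2 (-1.71, adjusted p = 2.47e-07), Vdr (-1.22, adjusted p = 1.2e-06), Nr3c2, which responds to aldosterone (-1.14, adjusted p = 5.68e-07), Hnf4g (-1.10, adjusted p = 1.04e-06) and the bile acid receptor Nr1h4 (-0.88, adjusted p = 1.07e-05) fell as well.

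Many genes of the secretory lineages also fell. Of 18 goblet cell genes 15 fell and 1 rose (median -0.65). Muc2, the gel-forming mucin, had 12.88, 12.76, 12.65, 12.83 and 12.70 in AOM/DSS Cygb-/- colons and 13.18 to 13.30 (median 13.27) in untreated ones, a difference of only -0.49 on the log2 scale but larger than the spread of either group (SE 0.06, adjusted p = 1.47e-05). B3gnt6, which makes the core 3 O-glycan of colonic mucin, had 5.84, 5.56, 5.38, 6.09 and 5.56 in AOM/DSS Cygb-/- colons and 9.09 to 9.54 (median 9.36) in untreated ones (log2 fold change -3.67, SE 0.12, adjusted p = 2.73e-10), and Gcnt3, of the core 2 and 4 chains, fell by 1.70 (adjusted p = 3.88e-07). Spdef, the goblet cell transcription factor, fell by 1.08 (adjusted p = 1.06e-06). Spink4 was the member that rose (0.24, adjusted p = 0.0431), a call lost without any one of the treated replicates 1 to 4. Of 20 mucin glycosylation genes 11 fell and 2 rose (median -0.31). The sulfate transporter gene Slc26a2 fell by 1.49 (adjusted p = 1.47e-05), and St6galnac1, which caps mucin chains with sialic acid, rose (1.04, adjusted p = 0.00025).

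Of 17 enteroendocrine genes 10 fell and none rose (median -0.58), and 7 did not pass the test. Among these 7 were the hormone genes Pyy (log2 fold change 0.03, adjusted p = 0.903) and Insl5 (-0.03, adjusted p = 0.934), with untreated means of 10.37 and 9.81. Neurog3 (-0.39, adjusted p = 0.0774) did not pass either. Nts, the neurotensin gene, had 4.23, 4.45, 4.93, 4.17 and 4.52 in AOM/DSS Cygb-/- colons and 7.33 to 8.37 (median 8.11) in untreated ones (log2 fold change -3.50, adjusted p = 5.7e-08). The prohormone convertase Pcsk1, chromogranin A (Chga) and somatostatin (Sst) fell by 1.81, 1.63 and 1.66 (adjusted p = 5.52e-08, 4.03e-06 and 5.51e-06). Of 12 tuft cell genes 6 fell and 2 rose. The tuft cell factor Pou2f3 fell by 1.20 (adjusted p = 9.41e-05) and the taste channel Trpm5 by 1.11 (adjusted p = 2e-05), whereas Alox5ap, which myeloid cells also express, rose 3.53-fold (adjusted p = 7.95e-05).

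Cell cycle transcripts were raised in every treated mouse. Whether more cells divided or the mix of cells changed was not tested. All 29 cell cycle genes were higher (median 0.65), and all 29 stayed so without replicate 3 and without replicates 1 and 3. Rrm2, a ribonucleotide reductase subunit, had 7.19, 7.18, 7.15, 7.26 and 7.18 in AOM/DSS Cygb-/- colons and 5.54 to 6.09 (median 5.69) in untreated ones (log2 fold change 1.45, SE 0.10, adjusted p = 1.93e-07). The replication helicase genes Mcm3 and Mcm4 rose 2.46-fold and 2.1-fold (adjusted p = 1.87e-06 and 3.22e-07), and Top2a 1.89-fold (adjusted p = 8e-07). The mean of the list was 0.57 to 0.82 in the 5 treated arrays. Genes of the damage response had no such common direction. Of 13 p53 targets and DNA repair genes 4 rose and 2 fell (2 and 2 without replicates 1 and 3), beside 17.8% and 17.1% of all genes. Cdkn1a, the p21 inhibitor, was lower (-0.38, adjusted p = 0.00408) and Mdm2 slightly higher (0.22, adjusted p = 0.00459). Mgmt, which removes the adducts of methylating agents such as AOM, was lower (-0.32, adjusted p = 0.00662).

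Wnt target genes were raised in some mice and not in others. Of 19 crypt stem cell and Wnt target genes 11 rose and 1 fell (median 0.67), but the mean of the list was -0.11 in treated replicate 1, against 1.56, 0.84, 0.61 and 1.88 in replicates 2 to 5 and -0.05 to 0.06 in untreated arrays. Wif1, a secreted Wnt inhibitor induced by Wnt signaling, had 5.72, 10.60, 8.53, 7.86 and 11.18 in AOM/DSS Cygb-/- colons and 5.71 to 6.01 (median 5.81) in untreated ones. Replicate 1 lay inside the untreated range and replicate 5 far above it (log2 fold change 2.93, SE 0.68, adjusted p = 0.00486). Notum, another secreted Wnt inhibitor, had 4.03, 8.63, 5.88, 6.07 and 8.87 in AOM/DSS Cygb-/- colons and 4.01 to 4.80 (median 4.39) in untreated ones, with replicate 1 again inside the untreated range and replicates 2 and 5 highest. Lgr5, the stem cell receptor, had 6.15, 8.71, 8.27, 7.25 and 9.05 in AOM/DSS Cygb-/- colons and 6.47 to 6.91 (median 6.73) in untreated ones, so that replicate 1 lay below the untreated range (log2 fold change 1.16, adjusted p = 0.0315). The call of Lgr5 was lost without treated replicate 2, 3 or 5 or untreated replicate 8. Prox1, a Wnt target of intestinal adenomas, had 5.66, 9.48, 7.74, 7.17 and 10.11 in AOM/DSS Cygb-/- colons and 5.33 to 5.99 (median 5.73) in untreated ones. Ccnd1 and Myc were above the untreated range on all 5 treated arrays, replicate 1 included (log2 fold change 0.66 and 0.65, adjusted p = 3.72e-05 and 0.000278). Lrig1, which restrains ERBB receptors in stem cells, fell by 0.35 (adjusted p = 0.00149). Mt4, a metallothionein, followed the same arrays as Wif1, at 3.52, 7.99, 4.56, 5.51 and 8.76 in AOM/DSS Cygb-/- colons and 3.47 to 3.94 (median 3.69) in untreated ones. No label says whether a piece of colon held a tumour. Without replicate 3, 8 genes of the list rose, with a median of 0.70, and without replicates 1 and 3, 16 rose, with a median of 1.10.

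**Figure D3:**
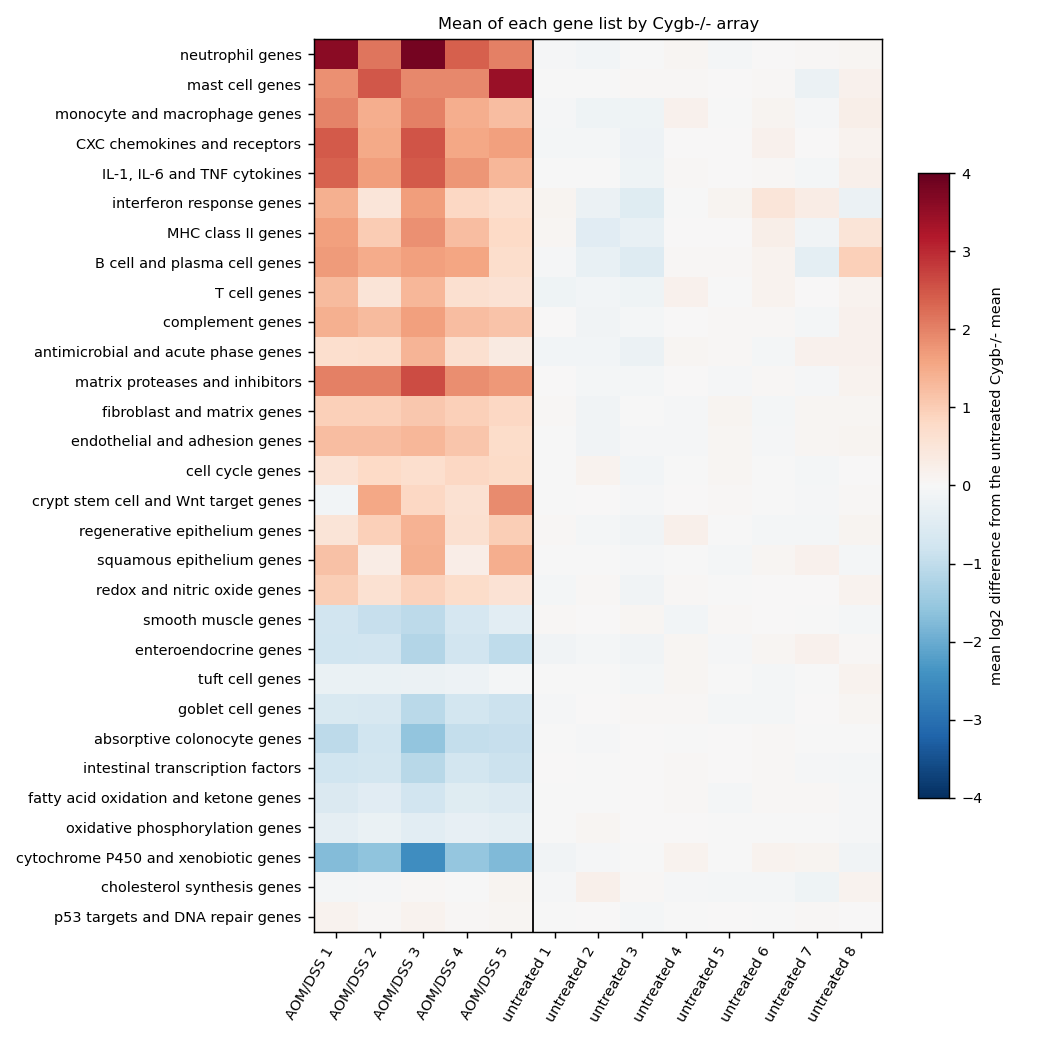
Mean log2 difference from the untreated Cygb-/- mean (colour, red above and blue below) of each gene list (y axis) on the 5 AOM/DSS and 8 untreated Cygb-/- arrays (x axis). The neutrophil row is darkest in AOM/DSS replicates 1 and 3 (3.60 and 3.84) and the mast cell row in replicate 5 (3.45), while the crypt stem cell and Wnt row is near 0 in replicate 1.

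Genes of the regenerating epithelium, a fetal-like state seen after injury, rose in 10 of 15 cases and fell in none (median 0.78). Clu, a marker of revival stem cells, had 9.37, 9.85, 10.18, 9.54 and 9.87 in AOM/DSS Cygb-/- colons and 7.15 to 8.6 (median 7.89) in untreated ones (log2 fold change 1.91, adjusted p = 1.22e-05), and Anxa1 rose 2.39-fold (adjusted p = 4.96e-07). Of 17 genes of EGF ligands, receptors and ERK feedback 11 rose and 3 fell. The ligands Ereg and Nrg1 rose 4.54-fold and 4.1-fold (adjusted p = 2.99e-05 and 4.67e-07), and the ERK phosphatases Dusp4 and Dusp6 3.27-fold and 2.07-fold (adjusted p = 1.86e-06 and 7.09e-06). Egf itself and the receptors Erbb2 and Erbb3 fell by 1.20, 0.77 and 0.77 (adjusted p = 5.09e-06, 5.72e-06 and 9.6e-06). Among 16 claudins and tight junction genes 3 rose and 4 fell, near the shares of 17.8% and 17.1% over all genes. Cldn4 and Cldn1 rose 3.13-fold and 1.94-fold, and Cldn15 and Ocln fell by 1.67 and 0.59.

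Keratins of stratified epithelium appeared on 3 arrays. Krt6a had 8.69, 3.74, 8.71, 3.96 and 8.72 in AOM/DSS Cygb-/- colons, against 2.32 to 3.17 (median 2.59) in untreated Cygb-/- colons (log2 fold change 4.11, SE 0.83, adjusted p = 0.00179). Krt13 had 8.12, 5.64, 8.31, 5.31 and 8.31 in AOM/DSS Cygb-/- colons and 3.73 to 4.45 (median 4.04) in untreated ones. Krt14 and the desmoglein Dsg3 rose 6.44-fold and 7.29-fold (adjusted p = 0.000269 and 4.81e-05), with the same 3 arrays highest. Replicates 1, 3 and 5 were high and replicates 2 and 4 moderately raised, the same split as for Ppbp. Of 20 squamous epithelium genes 9 rose and 1 fell (median 0.47), while 6 rose without replicate 3 and 5 without replicates 1 and 3. The mean of the list was 1.18, 0.30, 1.44, 0.25 and 1.45 in the treated arrays, against -0.09 to 0.18 in the untreated arrays. In WT colons the mean of the list was between -0.01 and 2.32 after AOM/DSS and between -0.10 and 1.63 without it. Squamous cells line the anal canal, next to the distal colon, and how much of it each piece held was not tested.

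Enzymes of nitric oxide and reactive oxygen, with which cytoglobin has been linked, changed in both directions. Of 25 redox and nitric oxide genes 14 rose and 6 fell (median 0.40), beside 17.8% and 17.1% of all genes. In WT colons 11 rose and 7 fell, and no gene of this list passed the threshold in the interaction. Nos2, the inducible nitric oxide synthase, had 10.21, 8.80, 10.29, 9.31 and 7.75 in AOM/DSS Cygb-/- colons and 4.71 to 6.19 (median 5.51) in untreated ones (log2 fold change 3.84, SE 0.39, adjusted p = 5.81e-06). The superoxide producers rose, with the phagocyte oxidase subunit Cybb 4.77-fold (adjusted p = 8.58e-06) and the epithelial Nox1 2.23-fold higher (adjusted p = 8.29e-06). Among protective genes the cystine transporter Slc7a11 rose 8.7-fold (adjusted p = 2.36e-07), heme oxygenase Hmox1 3.21-fold (adjusted p = 4.17e-05), the extracellular superoxide dismutase Sod3 2.62-fold (adjusted p = 4.86e-06), Gpx3 1.91-fold (adjusted p = 1.56e-05) and Txnrd1 1.56-fold (adjusted p = 1.08e-06). Catalase (Cat), Sod1 and Nqo1 fell by 0.61, 0.56 and 0.75 (adjusted p = 9.11e-06, 1.68e-05 and 0.000587), and the mitochondrial Sod2 had a log2 fold change of 0.16 (SE 0.07, adjusted p = 0.111). Of 17 hypoxia and glycolysis genes 8 rose and 1 fell. Hif1a rose 1.94-fold (adjusted p = 5.21e-06) and the lactate exporter Slc16a3 3.66-fold (adjusted p = 9.05e-08), while Ndrg1 fell by 0.87 (adjusted p = 1.04e-06).

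Of 14 prostaglandin genes 3 rose and 4 fell, beside 17.8% and 17.1% of all genes. Ptgs2, the inducible cyclooxygenase, had 10.50, 9.41, 10.55, 8.77 and 8.19 in AOM/DSS Cygb-/- colons and 6.24 to 7.10 (median 6.66) in untreated ones (log2 fold change 2.77, adjusted p = 3.97e-05). Ptges, which completes prostaglandin E2, rose 1.98-fold (adjusted p = 5.15e-05), and Hpgd, which inactivates it, fell by 1.63 (adjusted p = 4.02e-07). Lists of lipid synthesis stayed near the level of all genes. Of 15 cholesterol synthesis genes 2 rose and 1 fell (median 0.04), of 12 fatty acid synthesis genes 3 rose and 3 fell (median -0.03), and of 7 metallothioneins and zinc transporters 1 rose and 2 fell (median -0.01), beside a median of -0.03 over all genes. Of 16 endoplasmic reticulum stress genes 9 rose and 3 fell (median 0.33).

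Hox genes, which encode position along the body axis, were examined after their values had been seen. Of 36 measured 5 rose and 10 fell, beside 17.8% and 17.1% of all genes. Hoxb6 had 5.23, 5.05, 5.48, 5.03 and 6.00 in AOM/DSS Cygb-/- colons and 7.92 to 8.49 (median 8.20) in untreated ones (log2 fold change -2.85, SE 0.16, adjusted p = 3.69e-08). Hoxb5 fell by 1.89, Hoxb8 by 1.37, Hoxb3 by 1.17, Hoxb7 by 1.13, Hoxb4 by 1.08 and Hoxb9 by 0.91. Hoxd13, the last gene of its cluster, went the other way, at 9.50, 9.71, 9.10, 9.49 and 9.69 in AOM/DSS Cygb-/- colons and 6.29 to 8.34 (median 7.95) in untreated ones, without overlap (log2 fold change 1.75, adjusted p = 0.0003). Hoxd11, Hoxa9, Hoxd12 and Hoxa10 rose by 0.95, 0.81, 0.78 and 0.39. The log2 fold changes of Hoxa13 and Hoxb13 were -0.19 and -0.18 (adjusted p = 0.255 and 0.333). All samples are labelled distal colon, and whether treated and untreated pieces were cut at the same level was not tested. In WT colons Hoxb6 fell by 2.31 and Hoxd13 rose by 1.47, with 7 Hox genes higher and 12 lower after AOM/DSS.

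**Figure D4:**
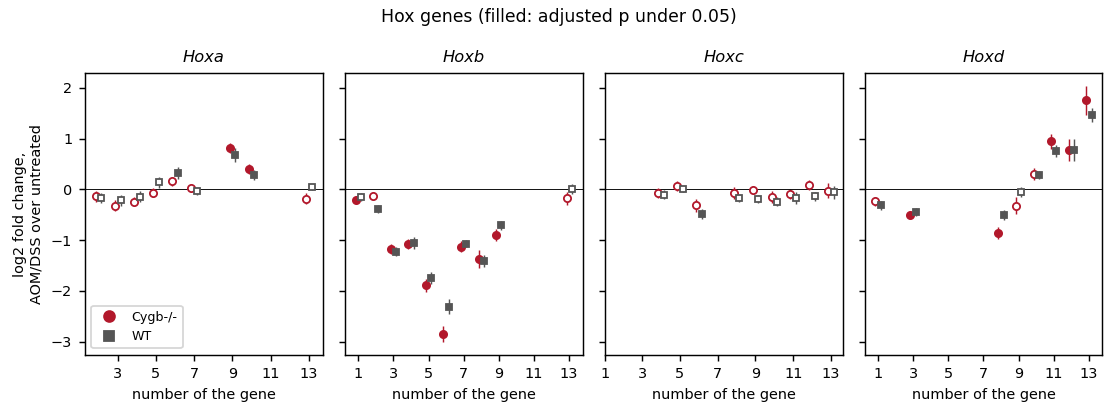
Log2 fold change, AOM/DSS over untreated (y axis, bars show the standard error), of the genes of the 4 Hox clusters by gene number (x axis), in Cygb-/- (red circles) and WT colons (grey squares), filled where the adjusted p is under 0.05. Genes Hoxb3 to Hoxb9 lie below 0 and Hoxd11 to Hoxd13 above 0 in both genotypes.

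The response of the Cygb-/- colon was then set against that of WT, which shares no arrays with it. In WT colons 3588 genes were higher after AOM/DSS (16.2%) and 4023 lower (18.1%). Of the genes called in Cygb-/- colons, 2913 were higher in both genotypes (74.0% of those higher in Cygb-/- and 81.2% of those higher in WT) and 2692 lower in both (71.0% and 66.9%), while 7 had opposite calls. Across the 22180 genes, which are not independent, the log2 fold changes in Cygb-/- and WT colons had a Pearson correlation of 0.922. Of 5612 genes called in both, 4006 had the larger change in Cygb-/- colons, with a median difference in size of 0.08 on the log2 scale. These genes had to pass in both fits, and the Cygb-/- fit had 5 treated arrays against 8 in WT. Such a filter can by itself favour genes with larger changes in Cygb-/- colons, so the count does not show a stronger response and was not tested. Neutrophil genes had a median log2 fold change of 3.22 in Cygb-/- and 2.34 in WT colons, and the list means of the arrays overlapped, at 2.01 to 3.84 in AOM/DSS Cygb-/- and 1.32 to 2.83 in AOM/DSS WT colons. The difference of response, tested as an interaction over all 29 arrays, reached an adjusted p under 0.05 in 41 genes (0.185%), of which 17 were shifted upward in Cygb-/- and 24 downward. In probe sets the number was 61, and it was 41 without the array with low Xist, 131 without AOM/DSS Cygb-/- replicate 5 and 116 without AOM/DSS WT replicate 8. At an unadjusted p under 0.05 there were 2138 genes. None of the 5 genes raised most, from Il1b to Retnlg, was among the 41 (adjusted p of 0.372 for Il1b, 0.883 for Clca4b, 0.485 for Saa3, 0.417 for S100a8 and 0.419 for Retnlg).

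**Figure D5:**
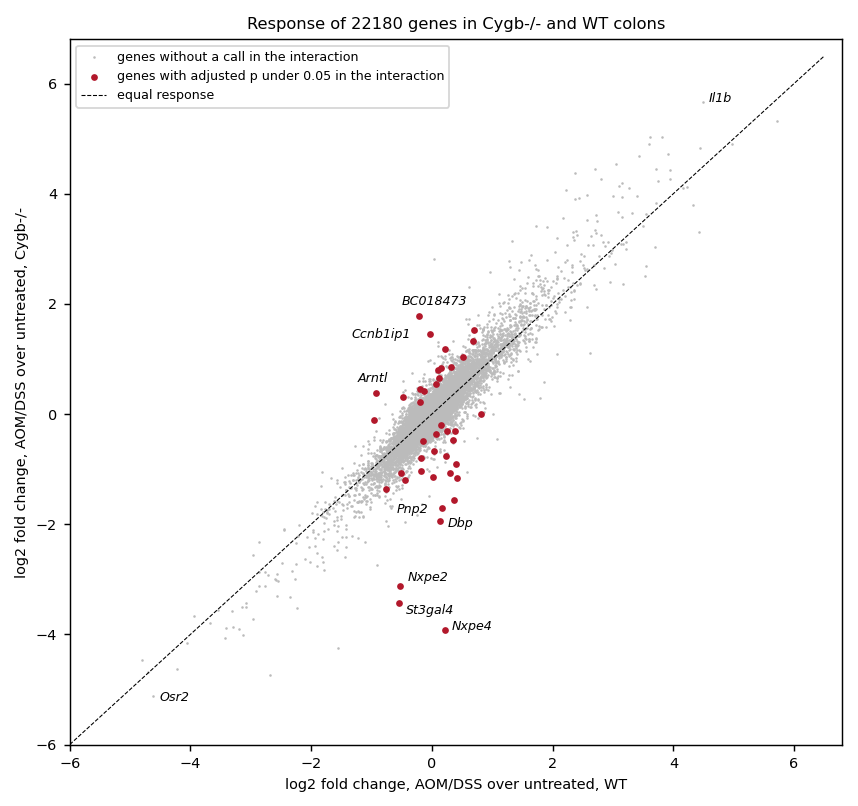
Log2 fold change after AOM/DSS in Cygb-/- colons (y axis) against that in WT colons (x axis) for 22180 genes (grey), with the 41 genes of an adjusted p under 0.05 in the interaction in red and equal response as a dashed line. Most genes follow the line (Pearson correlation 0.922), while Nxpe4, St3gal4 and Nxpe2 lie far below it.

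The genes that differed most fell after AOM/DSS in Cygb-/- colons and fell far less, or did not pass the test, in WT colons. Nxpe4, a secreted protein of the colonic epithelium with no known function, had 4.19, 4.36, 4.16, 4.23 and 4.51 in AOM/DSS Cygb-/- colons and 7.93 to 8.43 (median 8.19) in untreated Cygb-/- colons. In WT colons it had 7.88 to 8.74 (median 8.50) after AOM/DSS and 7.77 to 8.47 (median 8.26) without. The log2 fold change was -3.92 (adjusted p = 1.81e-11) in Cygb-/- and 0.21 (adjusted p = 0.286) in WT colons, a difference of -4.13 (SE 0.18, adjusted p = 9.2e-15). Its relative Nxpe2 fell by 3.12 in Cygb-/- and by 0.53 in WT colons (difference -2.60, adjusted p = 7.68e-08), and St3gal4, a sialyltransferase, fell by 3.43 and by 0.55 (difference -2.88, adjusted p = 3.88e-08). The 3 genes lie on chromosome 9 of GRCm38.p6, with 2 annotated genes between Nxpe2 and Nxpe4. Of the 41 genes 40 had a chromosome, of which 8 (20%) were on chromosome 9, which holds 5.7% of genes, and 8 (20%) on chromosome 14, which holds 3.59%. Those on chromosome 14 include Ccnb1ip1, an E3 ligase gene with a log2 fold change of 1.46 in Cygb-/- and -0.03 in WT colons (adjusted p of the difference 2.09e-05), and Pnp2, a purine phosphorylase gene whose log2 fold change was -1.71 in Cygb-/- and 0.17 in WT colons (adjusted p of the difference 0.00398), with 11 annotated genes between them. Pnp2 has a near-identical neighbour, Pnp, with which its probes may share signal. BC018473, separated from Cygb by 7 annotated genes on chromosome 11, had 9.07, 7.57, 8.37, 7.58 and 7.10 in AOM/DSS Cygb-/- colons. BC018473 had 5.77 to 6.62 (median 6.11) in untreated Cygb-/-, 3.08 to 3.74 (median 3.41) in AOM/DSS WT and 3.35 to 3.92 (median 3.55) in untreated WT colons. The genotypes thus already differed without treatment. These WT values, and the untreated Cygb-/- values of Ccnb1ip1 (at most 3.27), lay near or below the lower quartile of the arrays, where fold changes may be understated. The Cygb-/- mice were bred as a line apart from WT on an allele made in cells of another strain, and the share of the genome that differs between the lines was not tested.

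Clock genes formed a second group. Genes of the PER phase, which are transcribed together once a day under the BMAL1 dimer, fell in 8 of 10 cases in Cygb-/- colons and rose in none (median -1.05), against a median of 0.19 in WT colons, and 6 of the 10 had an interaction past the threshold. Dbp, a PAR bZIP factor that is a direct output of the clock, had 8.49, 7.53, 7.88, 7.70 and 7.79 in AOM/DSS Cygb-/- colons and 8.85 to 10.33 (median 10.19) in untreated Cygb-/- colons, but 8.77 to 9.78 (median 9.39) in AOM/DSS WT and 8.21 to 9.91 (median 9.38) in untreated WT colons (difference of response -2.08, adjusted p = 0.00976). The differences were -1.36 for Per3 (adjusted p = 0.00479), -1.92 for Ciart (adjusted p = 0.0193), -1.31 for Tef (adjusted p = 0.024), -1.0 for Nr1d2 (adjusted p = 0.0143) and -0.84 for Hlf (adjusted p = 0.0331). Arntl, which encodes BMAL1 and peaks opposite to these genes, shifted the other way (1.30, adjusted p = 0.0143). Arntl had 8.24, 8.65, 8.30, 8.82 and 8.48 in AOM/DSS Cygb-/- colons and 7.32 to 8.66 (median 8.15) in untreated Cygb-/- colons, against 7.57 to 7.88 (median 7.72) in AOM/DSS WT and 8.14 to 9.29 (median 8.58) in untreated WT colons. The hour at which tissue was taken is given by no label, so hour and group cannot be told apart. Other genes with a larger rise in Cygb-/- colons were Serpinh1, the collagen chaperone (0.79 against 0.10, adjusted p of the difference 0.00923), Gfpt2 of hexosamine synthesis (1.18 against 0.22, adjusted p = 0.0143), Col5a1 (1.03 against 0.52, adjusted p = 0.0366) and E2f8 (0.45 against -0.20, adjusted p = 0.0193). The differences of Col5a1, Hlf, E2f8, Tef and Ciart each missed the threshold when single arrays were left out, with adjusted p between 0.0521 and 0.114 in Col5a1 and of 0.0541 in Ciart without treated Cygb-/- replicate 4.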

How the data were processed

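Distal colon RNA of 5 AOM/DSS and 8 untreated Cygb-/- mice, and of 8 and 8 WT mice, had been hybridised to Affymetrix Mouse Gene ST arrays. The authors deposited log2 values made by RMA, with background correction and quantile normalization, and these were used unchanged. Such values depend on all 29 arrays together, carry no read depth and hold no detection calls, so the number of arrays limits the precision. A gene was measured by the probe set annotated with that gene alone that had the highest mean over the 29 arrays. Of 41345 probe sets 23521 named 1 gene, 1820 several and 16004 none. Of 456 called genes with further probe sets, 9 had one with the opposite call.

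Groups came from the labels. AOM/DSS was compared with untreated in Cygb-/- colons by limma 3.58.1 (lmFit and eBayes, two-sided) in R 4.3.3. P-values were adjusted by Benjamini and Hochberg across the 41345 probe sets, and those under 0.05 were called. Every adjusted p in the text comes from limma. WT was fitted in the same way, and the difference of response as an interaction over all 29 arrays. The fit was tested on simulated data. Gene lists were described by counts and medians, without a set test, and the score of a list on an array was the mean log2 difference of its members from their untreated Cygb-/- mean. The groups compared, the 46 lists, and the rule for naming genes were chosen with earlier results of these data known. The rule took the 15 genes raised and the 15 lowered most, with a higher group mean of at least 6 on the log2 scale, the 5 of smallest p each way, up to 6 of smallest p per list, the genes the study names, the leading interaction genes, and Xist. A list of Hox genes was added later. The promoter genes Acod1, Slc3a1 and Alpi, and Notum, Lgr5, Prox1, Cyp2c55, Epcam, Vil1 and list members beyond the first 6, were named after their values had been seen. The alternatives tried were other normalizations, fits, filters and tests, the replicate number as a block, and leaving out each array.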

Additional observations from a re-analysis of the deposited data

Results flagged for a closer look

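Of 590 sets of values of 1 group (genes named in the text and list means), 36 had 1 array set apart from the others by more of the range than Dixon's limit allows, and chance gives about 1 in 20 such sets. Among AOM/DSS Cygb-/- colons the array was most often replicate 3, the one with low Xist. It was lowest for Cyp2c65 (3.04), Aldh1a1 (6.44), Mep1a (6.55), Chga (7.71), Hpgd (8.39), Slc26a2 (8.68), Vdr (9.37) and the mean of the xenobiotic genes (-2.47 from the untreated mean). It was highest for Reg3b (10.30), Mpo (6.54) and Aldh1a3 (9.96). Replicate 5 was lowest for the vessel genes Selp (7.49), Vcam1 (8.42) and Madcam1 (7.14), for Cr2 (5.99), Gpx3 (6.32), Retnlb (6.02) and Spdef (7.68), and for the mean of the B cell genes (0.72), and it was highest for Hoxa10 (6.91). Replicate 2 was lowest for Cdkn1a (10.43).

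Among untreated Cygb-/- colons replicate 8 was highest for Ccl2 (5.52), Mmp13 (6.29), Cr2 (6.46), Spink4 (11.86) and the mean of the B cell genes (0.96), and lowest for Slc9a2 (10.12). Replicate 7 was lowest for Bmp2 (8.12), Hoxd11 (6.16) and the mean of the mast cell genes (-0.25) and highest for Il17a (4.0) and Ltf (4.87). Replicate 6 was highest for Iigp1 (6.74) and Hoxb7 (5.84), replicate 3 lowest for Hoxb9 (7.99) and replicate 1 highest for Ccnb1ip1 (3.27).

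The response of 17 genes named in the text differed between Cygb-/- and WT colons, as limma's interaction term on the log2 scale. The difference, Cygb-/- minus WT, was negative for Nxpe4 (-4.13), St3gal4 (-2.88), Nxpe2 (-2.60), Dbp (-2.08), Ciart (-1.92), Pnp2 (-1.87), Per3 (-1.36), Tef (-1.31), Nr1d2 (-1.0) and Hlf (-0.84). It was positive for BC018473 (1.99), Ccnb1ip1 (1.49), Arntl (1.30), Gfpt2 (0.96), Serpinh1 (0.69), E2f8 (0.64) and Col5a1 (0.51). Genotype, breeding line and hour of sampling cannot be told apart in these values.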

How the results depend on the processing

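Of the 231 named genes that passed the test, all kept their direction under every alternative run. Of all 249, 210 also kept their side of the threshold. Against 5224 probe sets higher and 5581 lower, the counts were 2489 and 1797 by the methods' t-test. That test covered only the 4526 probe sets with a mean difference of at least 1.5-fold, and its p-values were adjusted within them. The counts were 2395 and 1755 in limma with a fold of at least 1.5 required. With any 1 array left out the counts were between 4648 and 5137 and between 4808 and 5494. With the replicate block they were 3467 and 3548. The labels give no shared animal, litter or day for a number, and the correlation of same-numbered arrays was -0.02 on average, over 0.1 in 0 of 5 pairs, so the numbers were not read as pairs. The count of probe sets that differed between genotypes was the least stable, at 61 in the fit reported, 111 with array weights, 105 without dim probe sets, 54 with the replicate block and 41 to 131 with any 1 array left out, lowest without AOM/DSS Cygb-/- replicate 3 and highest without replicate 5 (116 without AOM/DSS WT replicate 8). The causes of these differences were not tested. A fit without replicates 1 and 3, added after the data were seen, called 4453 and 4092.

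The genes that turned direction had not passed the test. Without replicates 1 and 3 the log2 fold change was -0.165 for Elane, 0.006 for Epcam, -0.060 for Mpo and -0.066 for Oasl2, and with the replicate block it was 0.016 for Ifit1. With any 1 array left out it ran between -0.259 and 0.012 for Cd163 and between -0.047 and 0.290 for Elane. Values near the lower quartile of the arrays, such as the untreated values of S100a8, limit how far a fold change can be read.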

Other observations

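Paneth cells sit at crypt bases in the small intestine and are rare in the normal mouse colon. A few of their genes were looked at after their values had been seen. No list of Paneth cell genes was made, so how many of them changed, and in which direction, was not counted. Lyz1, the Paneth cell lysozyme, had log2 values of 7.63, 11.09, 10.80, 9.45 and 11.74 in AOM/DSS Cygb-/- colons, against 5.17 to 7.06 (median 6.05) in untreated Cygb-/- colons (log2 fold change 4.12, adjusted p = 7.6e-05 in limma). The matrix metalloprotease Mmp7, which processes alpha-defensins in these cells, had 6.79, 9.55, 10.06, 8.06 and 10.24 in AOM/DSS Cygb-/- colons and 4.17 to 4.77 (median 4.51) in untreated ones. The alpha-defensin gene Defa24, whose probes may share signal with close relatives, had 3.88, 8.56, 8.18, 5.43 and 9.39 in AOM/DSS Cygb-/- colons and 3.67 to 4.24 (median 4.17) in untreated ones (log2 fold change 3.03, adjusted p = 0.00601). All 3 were lowest in replicate 1, which was inside the untreated range for Defa24. Ang4 was also lowest in replicate 1 among treated arrays and highest in replicate 5, but all 5 values lay below the untreated ones. In WT colons Lyz1, Mmp7 and Defa24 rose by 4.22, 3.94 and 3.69.

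Khdc1a and Vsig1 were above the untreated range in every treated mouse. Khdc1a had 8.52, 7.37, 7.74, 8.48 and 7.96 in AOM/DSS Cygb-/- colons and 3.03 to 4.04 (median 3.86) in untreated ones (log2 fold change 4.27, SE 0.21, adjusted p = 1.77e-08). Vsig1, an adhesion protein known from the stomach, had 8.76, 9.0, 8.89, 8.91 and 8.87 in AOM/DSS Cygb-/- colons and 6.89 to 7.37 (median 7.11) in untreated ones (log2 fold change 1.76, SE 0.08, adjusted p = 6.23e-09).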
